A study of Mus musculus with 18 samples.

Results

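The genes described here are 10 genes of the basement membrane, chosen by name: the collagen IV genes Col4a1 and Col4a2, the laminin chain genes Lama2, Lama4, Lamb2, Lamc1 and Lamc3, the perlecan gene Hspg2, and the multiplexin collagens Col15a1 and Col18a1. They are 10 of the 35560 genes that the deposited count tables share. Each had 1 entry in either table, and all 10 passed the filter on low counts that left 14623 genes for testing. RNA came from the hearts of male C57BL/6 mice of wild-type genotype, whose age the labels do not give. All of the mice received isoproterenol (ISO), a beta-adrenergic agonist that stresses the heart, by daily subcutaneous injection of 2.5 mg/kg/day for 21 days. Mice of the ISO+100 nm PS group were also gavaged each day for 21 days with polystyrene (PS) particles of 100 nm at 50 mg/kg/day. Mice of the ISO+1 µm PS group received particles of 1 µm on the same schedule and at the same mass dose. Mice of the ISO group were gavaged with water. Each group has 6 libraries, which the labels number as separate samples without naming the animals, so p-values measure the spread between these libraries. No hearts without ISO and none with PS alone were among the libraries, so every value concerns PS on top of ISO.

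A basement membrane is a thin sheet of extracellular matrix that wraps each heart muscle cell and underlies the endothelium of every vessel. Laminin trimers of an alpha, a beta and a gamma chain polymerise on the cell surface, where integrins and dystroglycan bind them, and a network of collagen IV gives the sheet its strength. Perlecan and other proteoglycans link the networks, and the multiplexins anchor the sheet to the surrounding matrix.

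Libraries held 14032257 to 22600570 counts and came from 2 sequencing providers, called batch 1 and batch 2 here as the labels do. Batch 1 has 5 libraries of ISO+100 nm PS, 4 of ISO+1 µm PS and 3 of ISO. Batch 2 has 1, 2 and 3. The 10 genes together took 0.32% to 0.479% of the normalised counts of ISO+100 nm PS libraries and 0.268% to 0.49% in ISO+1 µm PS libraries, against 0.11% to 0.306% in ISO libraries. ISO replicate 2 stood apart, with the 0.11% share and 13152 genes detected, the fewest of all libraries. ISO replicate 1 stood apart in other ways. It had the lowest total, 14032257 counts, and mitochondrially encoded genes took 42.6% of its counts over the shared genes, against 13.3% to 31.1% in the other libraries. As a check of the tissue, all 10 cardiomyocyte markers were among the genes tested, and their summed level was at least 38991 CPM, the read count scaled to the size of the library, in every library. In whole-tissue RNA, fewer cells of a type and less RNA per cell cannot be told apart.

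The members lie on chromosomes 1, 2, 4, 8, 9 and 10, and 2 of them form a pair. In the RefSeq annotation of GRCm38.p6, Col4a1 spans chr8:11198423-11312889 on the minus strand and Col4a2 spans chr8:11312805-11449287 on the plus strand. The spans overlap at their 5′ ends, so the collagen IV genes are transcribed head to head. Hspg2 (chr4:137468751-137570630) and Col18a1 (chr10:77052178-77166530) each stand alone. Of 8 RefSeq promoter entries of members, 2 had an upstream stretch that overlaps no annotated exon and lies outside the span of its gene. These are shown, 1 for Hspg2 and 1 for Col18a1, whatever the expression of the genes. The stretches run from 250 to 61 bases before the transcript start of the RefSeq promoter entry (137468803 for Hspg2, inside the gene span, and 77166530 for Col18a1), 5′ to 3′ on the strand of the gene, and capitals mark every match on either strand to the GC box (GGGCGG), the CCAAT box, the TATA box (TATAAA) or the AP-1 motif (TGANTCA).
Hspg2, chr4:137468553-137468742, plus strand: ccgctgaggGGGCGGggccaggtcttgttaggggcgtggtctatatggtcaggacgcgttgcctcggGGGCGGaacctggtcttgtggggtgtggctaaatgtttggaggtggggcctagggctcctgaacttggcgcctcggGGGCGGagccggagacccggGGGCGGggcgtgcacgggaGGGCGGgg
Col18a1, chr10:77166591-77166780, minus strand: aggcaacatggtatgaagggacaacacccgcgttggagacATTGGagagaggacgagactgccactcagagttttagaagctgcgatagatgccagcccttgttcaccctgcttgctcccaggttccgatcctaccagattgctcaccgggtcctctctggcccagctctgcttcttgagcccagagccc
The Hspg2 stretch is 70.5% G and C and holds 5 GC boxes, a motif that 22.8% of the 32851 RefSeq promoter stretches of the same length contain at all and that 0.57% contain at least 5 times. The Col18a1 stretch is 56.8% G and C, holds no GC box and has 1 CCAAT on the reverse strand, a motif found in 26.7% of stretches. Another RefSeq promoter entry of Col18a1, with its start at 77113705, lies inside the gene and is not shown. Its stretch is 54.2% G and C and has 0 matches to the GC box and 0 to the CCAAT box. The median G and C content of all stretches was 51.6%. In these windows neither gene has a match to the TATA box, which 8.7% of stretches hold, or to the AP-1 motif, which 5.2% hold. A match describes the letters only. RefSeq promoter entries were matched for 7 of the 10 members.

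Levels of different genes were compared as CPM per kilobase of the longest transcript. In ISO hearts the collagen IV genes and Lamb2 stood highest, with 77.5 ± 23.1 for Col4a1, 60.3 ± 25.1 for Col4a2 and 60.2 ± 18.1 for Lamb2 (mean ± SD, n = 6). These ranges of mean ± SD overlap between libraries. Within each ISO library, however, Col4a1 was above Col4a2, with a log2 ratio of Col4a2 to Col4a1 (in CPM) of -1.39 to -0.26. Hspg2 at 34.8 ± 13.9, Lamc1 at 24.3 ± 9.08, Col15a1 at 22.1 ± 7.49 and Lama4 at 20.5 ± 3.3 CPM per kb followed, again with overlapping ranges. Lama2 at 10.8 ± 1.88, Col18a1 at 4.01 ± 2.26 and Lamc3 at 0.0604 ± 0.0394 CPM per kb were lowest. Lamc1 was thus the abundant gamma chain of these hearts and Lamc3 a trace transcript, and Lama4 was above Lama2 although both encode alpha chains.

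**Figure D1:**
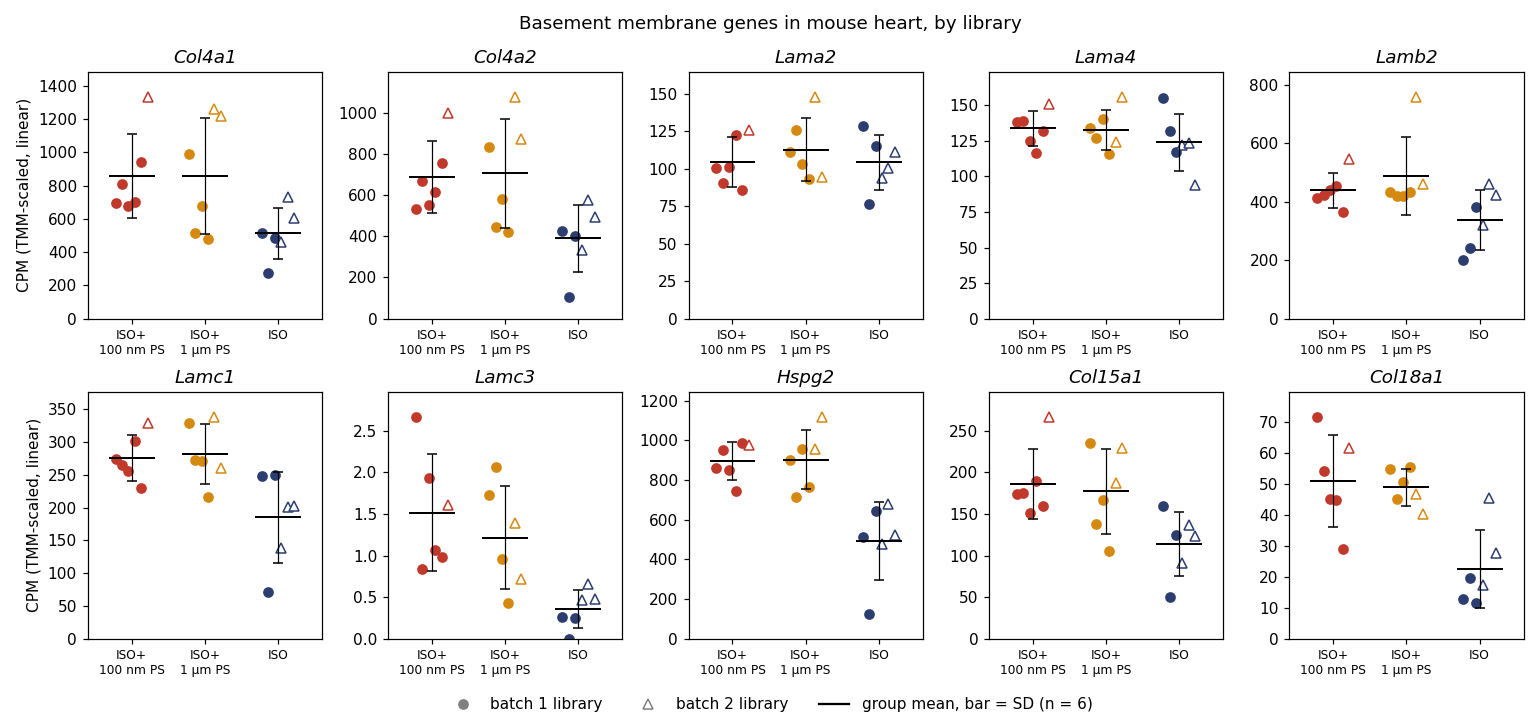
Level of each gene in every library, in CPM on a linear axis that starts at 0, for ISO+100 nm PS, ISO+1 µm PS and ISO (6 libraries each). Filled circles are batch 1, open triangles batch 2, and the line and bar give the group mean and SD. All PS points of Hspg2 lie above the highest ISO point at 681 CPM, while the 3 groups of Lama2 and of Lama4 cover one another.

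With 100 nm PS, 6 of the 10 genes were higher than with ISO alone and none was lower, at an adjusted p under 0.05 (quasi-likelihood test of edgeR, p-values adjusted over all genes by Benjamini-Hochberg). These were Col4a1, Col4a2, Col15a1, Col18a1, Lamc3 and Hspg2. Of all genes tested, 9.57% passed in this comparison, 3.88% as higher and 5.69% as lower. As the 10 genes were chosen with earlier results of these data known, such shares are no test of them as a set. With 1 µm PS, 6 of the 10 were again higher and none lower, here Col4a1, Col4a2, Col18a1, Lamb2, Lamc3 and Hspg2, where 7.39% of all genes passed, 2.89% as higher and 4.5% as lower. The median log2 fold change of the 10 genes was 0.88 with 100 nm PS and 0.74 with 1 µm PS, beside -0.02 and 0 over all genes. The comparisons share their ISO libraries, so their likeness is not independent evidence. They also share an estimate of the spread over all 18 libraries. With only the groups compared in the fit, 2 of the 10 passed with 100 nm PS and 0 with 1 µm PS. Of all genes, 2.61% and 0% passed in those fits. The 100 nm count was 0 without the batch term, 0 without 100 nm replicate 6 (the single 100 nm library of batch 2), and 2 or 3 without 100 nm replicates 1, 2, 3 or 5 or ISO replicate 4. The 1 µm count was 0 without the batch term, 1 without ISO replicates 4 or 6 or 1 µm replicates 1, 3 or 5, and 2 without any other 1 µm library or any 100 nm library.

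The G and C content of the transcripts moved with the groups. Its median was 58% over the 10 genes and 49.8% over all genes tested. Within a library, the Spearman correlation across genes between G and C content and the deviation from the batch mean was 0.12 to 0.37 in ISO+100 nm PS libraries and 0.18 to 0.32 in ISO+1 µm PS libraries, against -0.61 to 0.01 in ISO libraries. After a correction of each library for G and C content, which by construction removes any difference linked to it whatever its source, 0 of the 10 genes passed at either particle size. Only 1 gene of the 14623 passed with 100 nm PS and 2 with 1 µm PS. The corrected log2 fold changes stayed above 0 in both comparisons for the collagen genes, Lamc1, Lamc3 and Hspg2, and ran from 0.21 for Col15a1 with 1 µm PS to 1.79 for Lamc3 with 100 nm PS. Lama2 and Lama4, whose transcripts have the lowest G and C content of the 10 (47.7% and 50.0%), are also the genes with the smallest differences. The source of the link between G and C content and the groups was not tested. With transcript length corrected for as well, or with ISO replicate 2 removed before the G and C correction and the fit, 0 of the 10 passed at either size too.

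**Figure D2:**
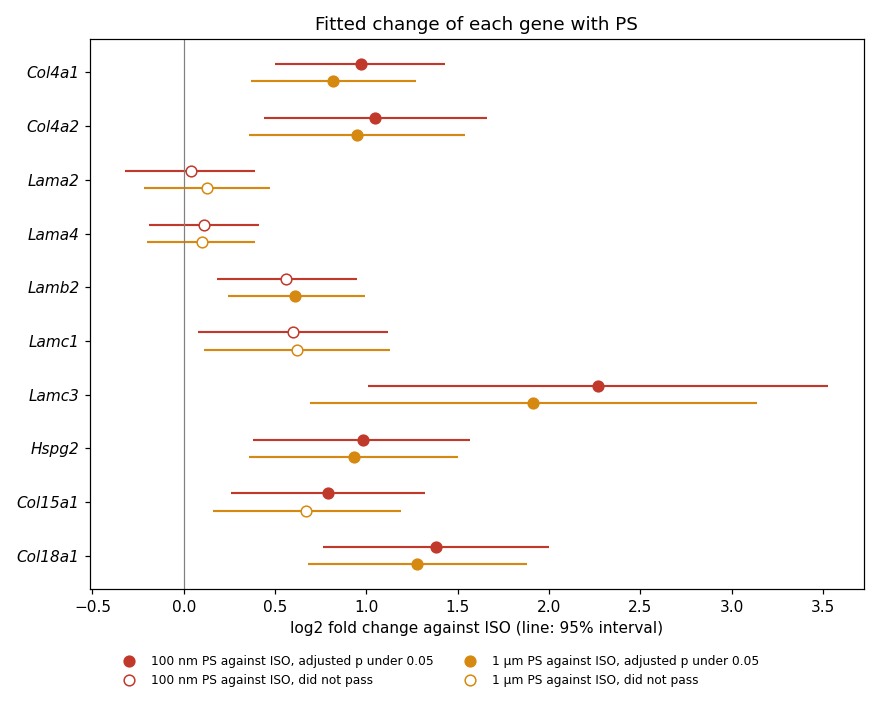
Log2 fold change of each gene with 100 nm PS (red, upper) and 1 µm PS (orange, lower) against ISO, with its 95% interval from the edgeR fit to all 18 libraries. Filled points had an adjusted p under 0.05. Lamc3 has the largest estimates, 2.27 and 1.91, with the widest intervals, and the intervals of Lama2 and Lama4 span 0.

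The collagen IV genes encode the chains that together make the collagen IV trimer of most basement membranes. Col4a1 had 675 to 1335 CPM (median 756) in ISO+100 nm PS hearts and 482 to 1258 CPM (median 834) in ISO+1 µm PS hearts, against 276 to 733 CPM (median 499) in ISO hearts. The PS groups overlapped ISO, with 3 of 6 libraries at either size above the highest ISO library. Col4a1 rose by a log2 fold change of 0.97 ± 0.22 (SE; 1.95-fold, adjusted p = 0.0166, edgeR) with 100 nm PS and of 0.82 ± 0.21 (1.76-fold, adjusted p = 0.0286) with 1 µm PS. The highest libraries of both PS groups came from batch 2, and within batches the log2 fold change was 0.84 in batch 1 and 1.15 in batch 2 with 100 nm PS, and 0.64 and 1.02 with 1 µm PS. The call held in 17 of 18 fits without a library for 100 nm PS and in 12 of 18 for 1 µm PS.

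Col4a2 had 533 to 999 CPM (median 642) in ISO+100 nm PS hearts and 420 to 1078 CPM (median 706) in ISO+1 µm PS hearts, against 106 to 574 CPM (median 415) in ISO hearts. In each PS group 4 of 6 libraries exceeded every ISO library, and the lowest value of all was that of ISO replicate 2. Col4a2 rose by a log2 fold change of 1.05 ± 0.28 (2.07-fold, adjusted p = 0.0303, edgeR) with 100 nm PS and of 0.95 ± 0.27 (1.93-fold, adjusted p = 0.043) with 1 µm PS. The batches gave similar values, 0.99 and 1.10 with 100 nm PS and 0.86 and 1.04 with 1 µm PS. The call held in 12 of 18 fits without a library for 100 nm PS and in 4 of 18 for 1 µm PS. The log2 ratio of Col4a2 to Col4a1 differed from ISO by 0.24 with 100 nm PS and by 0.26 with 1 µm PS, neither past the threshold (exact two-sided permutation within batch, adjusted p = 0.387 and 0.335 over 8 ratio tests). Its 100 nm value was -0.03 without ISO replicate 2, where the ratio was -1.39 against -0.48 to -0.19 in all PS libraries.

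Among the laminin alpha chains, Lama2, whose product is the main alpha chain around muscle cells and whose loss causes congenital muscular dystrophy in humans, had 86.1 to 126 CPM (median 101) in ISO+100 nm PS hearts and 93.1 to 148 CPM (median 107) in ISO+1 µm PS hearts, against 76.5 to 128 CPM (median 106) in ISO hearts. Lama4, an alpha chain of vascular and cardiac basement membranes, had 116 to 151 CPM (median 135) with 100 nm PS and 116 to 156 CPM (median 130) with 1 µm PS, against 94.3 to 155 CPM (median 123) with ISO alone. The 3 groups overlapped almost fully for both genes. The log2 fold change of Lama2 was 0.04 with 100 nm PS (95% interval -0.32 to 0.39, adjusted p = 0.903, edgeR) and 0.13 with 1 µm PS (-0.22 to 0.47, adjusted p = 0.639). That of Lama4 was 0.11 (-0.19 to 0.41, adjusted p = 0.644) and 0.10 (-0.20 to 0.39, adjusted p = 0.678). With 100 nm PS both intervals lay below that of Col4a1 (0.50 to 1.43). With 1 µm PS both overlapped that of Col4a1 (0.37 to 1.27). The sign is not fixed, since in batch 1 alone Lama2 with 100 nm PS gave -0.10 and Lama4 gave -0.05 with 100 nm PS and -0.06 with 1 µm PS. The ratio of Lama4 to Lama2 did not pass at either size (log2 differences 0.05 and -0.03, exact permutation, adjusted p = 0.886 for both).

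Lamb2 encodes a laminin beta chain found in vessel walls and at neuromuscular synapses. It had 365 to 547 CPM (median 432) in ISO+100 nm PS hearts and 419 to 761 CPM (median 433) in ISO+1 µm PS hearts, against 202 to 462 CPM (median 352) in ISO hearts. The groups overlapped, with 1 library of 100 nm PS and 2 of 1 µm PS above all ISO libraries. It rose with 1 µm PS by a log2 fold change of 0.61 ± 0.17 (1.53-fold, adjusted p = 0.0406, edgeR), and with 100 nm PS its value was 0.56 ± 0.18 (1.48-fold, adjusted p = 0.055). Batch 1 gave 0.60 and batch 2 gave 0.45 with 100 nm PS, and 0.62 and 0.58 with 1 µm PS. The 1 µm call held in 5 of 18 fits without a library. After the G and C correction the values were 0.00 with 100 nm PS and 0.08 with 1 µm PS, and they turned to -0.25 and -0.18 when length was corrected for as well.

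The gamma chains differed in level and in size of change. Lamc1, the gamma chain of most laminin trimers, had 230 to 329 CPM (median 269) in ISO+100 nm PS hearts and 217 to 339 CPM (median 272) in ISO+1 µm PS hearts, against 70.8 to 250 CPM (median 201) in ISO hearts. Of 6 libraries, 5 at either size lay above all ISO libraries. The log2 fold change was 0.60 ± 0.24 with 100 nm PS (adjusted p = 0.112, edgeR) and 0.62 ± 0.24 with 1 µm PS (adjusted p = 0.105), neither past the threshold, and it was 0.39 and 0.42 without ISO replicate 2, the library with the 70.8 CPM.

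Lamc3, a gamma chain with a restricted distribution, had 0.841 to 2.67 CPM (median 1.34) in ISO+100 nm PS hearts and 0.434 to 2.07 CPM (median 1.18) in ISO+1 µm PS hearts, against 0 to 0.662 CPM (median 0.364) in ISO hearts. All 6 libraries of 100 nm PS and 5 of 6 with 1 µm PS lay above the highest ISO library. These values rest on 18 to 57 and 9 to 47 reads per library, against 0 to 9 reads in ISO libraries, where ISO replicate 2 had none. Lamc3 rose by a log2 fold change of 2.27 ± 0.59 (4.83-fold, adjusted p = 0.0259, edgeR) with 100 nm PS and of 1.91 ± 0.57 (3.77-fold, adjusted p = 0.0475) with 1 µm PS. In batch 1 alone the values were 3.03 and 2.83, and in batch 2 alone 1.57 and 0.95. The 1 µm call held in 2 of the 18 fits that each left out a library.

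The log2 ratio of Lamc3 to Lamc1 averaged -7.51 ± 0.59 with 100 nm PS and -7.87 ± 0.59 with 1 µm PS, against -8.76 ± 0.72 with ISO alone (SD, n = 6 each). The ratio was higher with 100 nm PS by 1.51 after adjustment for batch (exact two-sided permutation within batch, p = 0.00446, the smallest that 224 arrangements can give, adjusted p = 0.0357). With 1 µm PS the difference was 0.98 (exact p = 0.0314, adjusted p = 0.126). With any 1 of the 12 libraries of the 100 nm comparison removed, other than ISO replicates 4, 5 or 6, the adjusted p was above the threshold. The arrangements left in those fits (56 to 140) allow no exact p under 0.00714, which over 8 tests is too large for a lone ratio to pass, and the ratio had the smallest p possible in each.

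Hspg2 encodes perlecan, the large heparan sulfate proteoglycan that ties laminin and collagen IV together and holds growth factors. It had 742 to 986 CPM (median 905) in ISO+100 nm PS hearts and 712 to 1119 CPM (median 929) in ISO+1 µm PS hearts, against 126 to 681 CPM (median 516) in ISO hearts. Neither PS group overlapped ISO. Hspg2 rose by a log2 fold change of 0.98 ± 0.28 (1.97-fold, adjusted p = 0.0358, edgeR) with 100 nm PS and of 0.93 ± 0.27 (1.90-fold, adjusted p = 0.0426) with 1 µm PS. Without ISO replicate 2, which held the 126 CPM, the values were 0.71 (adjusted p = 0.0108) and 0.69 (adjusted p = 0.0101). Batch 1 gave 1.03 and batch 2 gave 0.81 with 100 nm PS, and 0.95 and 0.87 with 1 µm PS. The call held in 9 of 18 fits without a library for 100 nm PS and in 4 of 18 for 1 µm PS.

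The multiplexins are collagens of the outer basement membrane zone. Col15a1, a component of muscle and capillary basement membranes, had 151 to 267 CPM (median 175) in ISO+100 nm PS hearts and 106 to 236 CPM (median 177) in ISO+1 µm PS hearts, against 49.8 to 160 CPM (median 124) in ISO hearts. In each PS group 4 of 6 libraries lay above all ISO libraries. It rose with 100 nm PS by 0.79 ± 0.25 on the log2 scale (1.73-fold, adjusted p = 0.0493, edgeR), a call that held in 3 of 18 fits without a library, and had a log2 fold change of 0.67 ± 0.24 with 1 µm PS (adjusted p = 0.0853). Batch 1 gave 0.60 and batch 2 gave 1.20 with 100 nm PS, and 0.52 and 0.81 with 1 µm PS.

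Col18a1, the source of the antiangiogenic fragment endostatin, had 29.0 to 71.8 CPM (median 49.7) in ISO+100 nm PS hearts and 40.2 to 55.4 CPM (median 48.8) in ISO+1 µm PS hearts, against 11.7 to 45.4 CPM (median 18.5) in ISO hearts. In batch 1 every PS library (29.0 to 71.8 and 45.3 to 55.4 CPM) lay above every ISO library (11.7 to 19.5 CPM). In batch 2 the 100 nm library had 61.6 CPM and the 1 µm libraries 40.2 and 46.8 CPM, against 17.5 to 45.4 CPM with ISO alone, where the 1 µm and ISO values overlapped. Col18a1 rose by 1.38 ± 0.29 on the log2 scale (2.61-fold, adjusted p = 0.0133, edgeR) with 100 nm PS and by 1.28 ± 0.28 (2.43-fold, adjusted p = 0.0178) with 1 µm PS. The 1 µm call held in 18 of 18 fits without a library and the 100 nm call in 17 of 18.

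For Col18a1 the batches gave 1.74 and 1.03 with 100 nm PS, and 1.82 and 0.50 with 1 µm PS. The difference between batches in the 1 µm effect was -1.29 ± 0.49 (batch 2 minus batch 1) and did not pass after adjustment over all genes (adjusted p = 0.209, edgeR). No member passed that test at either size, with adjusted p of 0.209 or more. The log2 ratio of Col18a1 to Col15a1 differed by 0.66 with 100 nm PS and by 0.62 with 1 µm PS (exact permutation, adjusted p = 0.384 for both).

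**Figure D3:**
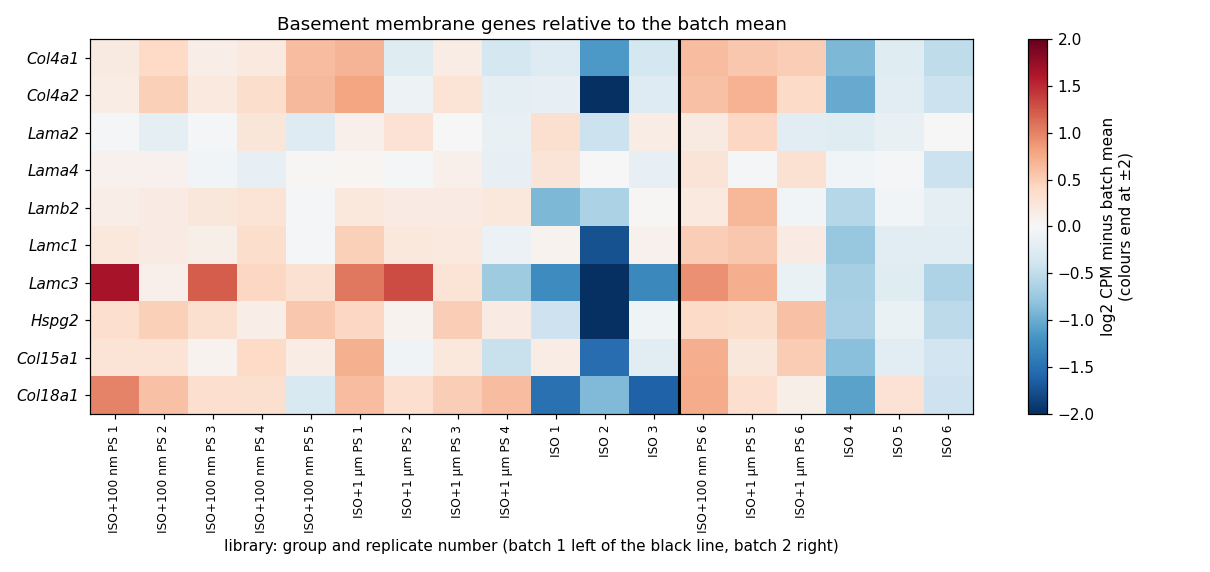
Log2 CPM of each gene in each library minus the mean of its batch, red above and blue below, with batch 1 left of the line and batch 2 right of it. Within either batch the ISO columns are mostly blue, deepest for ISO replicate 2 at -2.18 for Col4a2 and -2.43 for Hspg2. The rows of Lama2 and Lama4 stay pale.

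Counting libraries in place of fitted values, 2 of the 10 genes (Lamc3 and Hspg2) had every 100 nm PS value above every ISO value, beside 1.63% of all genes, and 1 (Hspg2) had this for 1 µm PS, beside 1.12%. Within batch 1 the counts were 5 with 100 nm PS (Col4a1, Col4a2, Col18a1, Lamc3 and Hspg2) beside 9.83% of all genes, and 4 with 1 µm PS (Col18a1, Lamb2, Lamc3 and Hspg2) beside 11.8%.

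Particle size was compared directly, 1 µm against 100 nm PS. None of the 10 genes passed, and 0% of all genes did. At an unadjusted p under 0.05 the edgeR test gave 49 of 14623 genes, with 0 of the 10 among them. That is a smaller share than the 0.05 that p-values give where nothing differs, so the test was conservative here. No alternative run, DESeq2 included, called a member. The log2 difference ran from -0.36 for Lamc3 (95% interval -1.40 to 0.69) to 0.09 for Lama2 (-0.25 to 0.44). The intervals were -0.60 to 0.30 for Col4a1, -0.68 to 0.49 for Col4a2, -0.66 to 0.46 for Col18a1 and -0.62 to 0.52 for Hspg2. These intervals hold differences in either direction, so they do not show that the sizes act alike.

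In the mean of both PS groups, 7 of the 10 genes were higher than in ISO hearts and none was lower, where 17.7% of all genes passed, 6.80% as higher and 10.9% as lower. Lamb2 (0.59 ± 0.16 on the log2 scale, adjusted p = 0.0172, edgeR) and Col15a1 (0.73 ± 0.22, adjusted p = 0.0273), which had each passed at 1 size, both passed here. Lamc1 had 0.61 ± 0.21 with an adjusted p of 0.0536. Col4a1, Col4a2, Col18a1, Lamb2, Lamc3 and Hspg2 each passed in 18 of 18 fits without a library, and Col15a1 in 15. After the G and C correction 1 member, Lamc3, passed (1.63, adjusted p = 0.0426), beside 12.5% of all genes, and 3 members passed without the batch term.

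**Figure D4:**
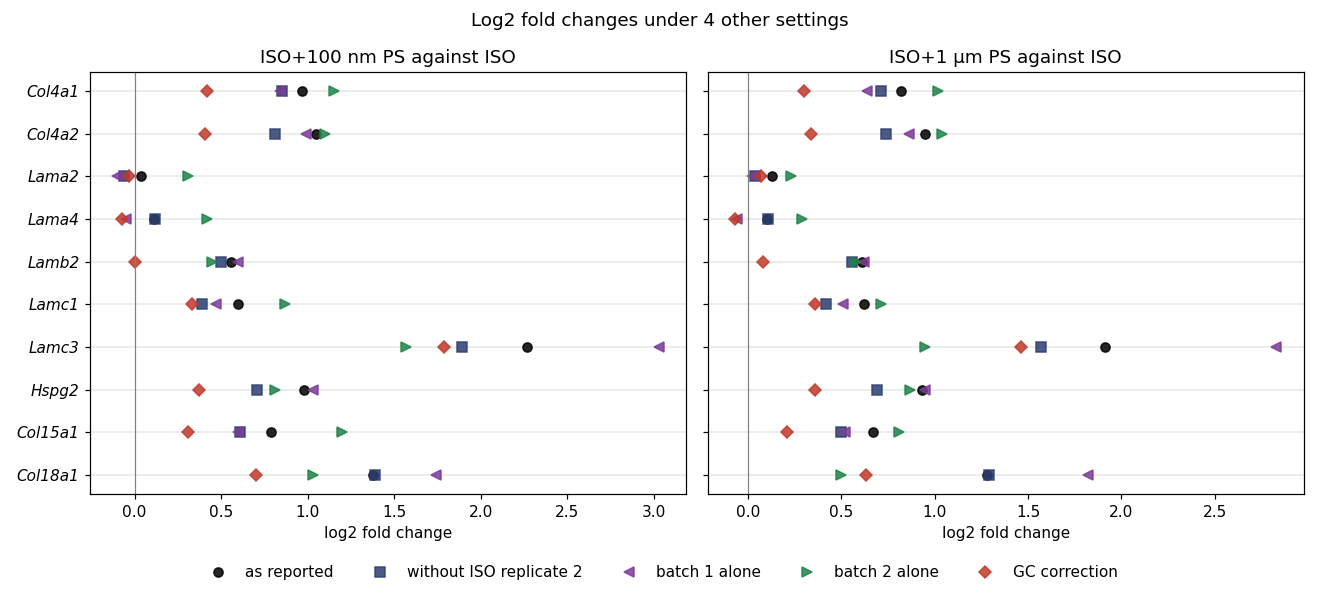
Log2 fold change of each gene against ISO as reported (black circle), without ISO replicate 2, in each batch alone and after correction for G and C content, with 100 nm PS left and 1 µm PS right. The corrected values lie left of the reported ones for every gene, at 0.42 against 0.97 for Col4a1 and 0.37 against 0.98 for Hspg2 with 100 nm PS, and Lamc3 and Col18a1 are the genes with the widest gap between batches.

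Across the 18 libraries, after subtraction of batch means, Col4a1 and Col4a2 followed each other closely (Pearson r = 0.95, and 0.99 in 17 libraries without ISO replicate 2). Hspg2 went with Col4a2 at r = 0.95 too (0.87 without that library). Lamc1 and Col15a1 each went with Col4a2 at 0.94 (0.84 and 0.88), Lamc1 with Col15a1 at 0.93 (0.87), and Col15a1 with Col4a1 at 0.92 (0.90). Col18a1 followed Lamb2 (0.74) and Lamc3 (0.74) more than Col4a1 (0.60). Lama2 and Lama4 had r = -0.03 with each other. These coefficients describe libraries that share batches, depth and base composition, and they include the group differences given above.

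The genes outside the 10 whose batch-centred level was most like the mean profile of the members, over 18 libraries and 10461 genes with at least 5 CPM on average, were Col6a2 (r = 0.963), Fbln2 (0.962), Nfkb1 (0.953), Ace (0.952), Col5a1 (0.952) and Lrp1 (0.949). Their transcripts were 55.2% to 58% G and C, except Nfkb1 at 44.9%, beside a median of 49.8% over all genes tested. The mean profile of the members, in SD units, was lowest in ISO replicate 2. It was -2.19 there, against -1.18 to 0.93 in the other libraries.

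Among 29 other structural genes of the basement membrane that could be tested of 30 listed, 5 were higher with 100 nm PS and 2 with 1 µm PS, beside 3.88% and 2.89% of all genes. None was lower, and the median log2 fold changes were 0.56 and 0.43. Those with the smallest p were Fn1 (fibronectin), which rose by 1.03 ± 0.21 with 100 nm PS (adjusted p = 0.0119, edgeR), Fbln1 (fibulin), by 1.11 ± 0.28 (adjusted p = 0.0224), and Agrn (agrin), by 0.88 ± 0.22 (adjusted p = 0.0225). The most abundant genes of that list per kilobase were Sparc, a collagen-binding glycoprotein, and Tinagl1. Sparc rose with 100 nm PS by 0.96 ± 0.24 (adjusted p = 0.0232) and had 0.77 ± 0.24 with 1 µm PS (adjusted p = 0.0529). Tinagl1 had 0.69 ± 0.23 and 0.68 ± 0.22 (adjusted p = 0.0607 and 0.0608), so it did not pass at either size.

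Of 19 laminin and collagen IV receptor genes, 4 were higher with 100 nm PS and 2 with 1 µm PS, beside 3.88% and 2.89% of all genes. Examples are Mcam, an adhesion receptor of vessel cells that binds laminin (0.88 ± 0.23 with 100 nm PS, adjusted p = 0.0291, edgeR), and Ddr1, a collagen receptor kinase (1.06 ± 0.30 with 1 µm PS, adjusted p = 0.0406). Sdc3, a syndecan, rose by 0.97 ± 0.29 with 1 µm PS (adjusted p = 0.047). The 19 genes of the dystrophin complex and of dystroglycan glycosylation, which link laminin to the muscle cytoskeleton, included 3 that were lower with 100 nm PS and 1 with 1 µm PS, beside 5.69% and 4.5% of all genes, and none that was higher. With 100 nm PS, Sgcb fell by 0.61, Sspn fell by 0.66 and Dmd fell by 0.70 on the log2 scale (adjusted p = 0.0229, 0.028 and 0.0381). The medians of that list were -0.10 and 0.08.

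The counts of this paragraph stand beside 3.88% of all genes higher with 100 nm PS and 2.89% with 1 µm PS. Of 20 genes for assembly and collagen processing, 7 were higher with 100 nm PS and 3 with 1 µm PS. They include Serpinh1, the collagen chaperone (0.74 ± 0.17 with 100 nm PS, adjusted p = 0.0172, edgeR), and the lysyl hydroxylases Plod3 (0.59 ± 0.13 with 100 nm PS, adjusted p = 0.0138) and Plod1 (0.55 ± 0.13 with 1 µm PS, adjusted p = 0.023). Of 19 genes for degradation and its inhibitors, 3 were higher at either size, and with 100 nm PS the proteases Bmp1 (0.89 ± 0.18), Mmp14 (0.96 ± 0.22) and Mmp2 (0.84 ± 0.21) rose, with adjusted p of 0.0125, 0.0171 and 0.0232. Of 6 fibrillar collagen genes tested of 7 listed, 5 were higher with 100 nm PS and 1 with 1 µm PS, with median log2 fold changes of 1.20 and 0.89. Col1a1 had 1.86 ± 0.50 with 100 nm PS (adjusted p = 0.0289). After the G and C correction no gene of any of these lists passed at either size.

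Levels of cell type markers were measured in the same libraries. The counts of every marker list stand beside the shares of all genes. With 100 nm PS 3.88% passed as higher and 5.69% as lower, and with 1 µm PS 2.89% and 4.5%. Endothelial markers summed to 2364 to 3660 CPM (median 3266) in ISO+100 nm PS hearts and 2398 to 3516 CPM (median 2795) in ISO+1 µm PS hearts, against 1192 to 2738 CPM (median 2176) in ISO hearts, and 3 of 12 passed as higher with 100 nm PS and 1 with 1 µm PS. Eng rose by 0.89 ± 0.19, Esam by 0.72 ± 0.22 and Vwf by 1.20 ± 0.37 with 100 nm PS (adjusted p = 0.0142, 0.0437 and 0.0459, edgeR). Smooth muscle markers summed to 586 to 1171 CPM (median 841) and 625 to 1120 CPM (median 936), against 218 to 965 CPM (median 515) with ISO alone, and 3 of 7 passed as higher at either size, among them Smtn, Acta2 and Lmod1.

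Pericyte markers summed to 1049 to 1580 CPM (median 1271) with 100 nm PS and 933 to 1682 CPM (median 1482) with 1 µm PS, against 715 to 2029 CPM (median 1107) with ISO alone. Of 8, the genes Cspg4, Notch3 and Pdgfrb passed as higher at either size, while the list's median log2 fold changes were -0.02 and 0.05. Fibroblast markers summed to 3108 to 5427 CPM (median 4120) and 3037 to 4218 CPM (median 3787), against 2406 to 3463 CPM (median 2891) with ISO alone. Of 10, 4 passed as higher with 100 nm PS, led by Pi16, Mfap4 and Islr, and 1 with 1 µm PS.

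Cardiomyocyte markers summed to 42079 to 88616 CPM (median 52602) with 100 nm PS and 48960 to 117848 CPM (median 55786) with 1 µm PS, against 38991 to 98649 CPM (median 80020) with ISO alone, and 1 of 10 (Pln, -0.91 ± 0.22 with 100 nm PS, adjusted p = 0.0205, edgeR) passed, as lower, at either size. Of 5 atrial markers tested, 2 were higher with 100 nm PS (Myl4 at 4.84 ± 1.5 and Dkk3 at 2.54 ± 0.77) and none with 1 µm PS, with sums of 342 to 3433 CPM and 253 to 941 CPM against 115 to 937 CPM with ISO alone. Skeletal muscle markers Tnni2 and Tnnt3 were lower with 100 nm PS (-2.39 ± 0.73 and -3.16 ± 0.97), 2 of 4 tested, with sums of 728 to 2968 CPM and 789 to 4056 CPM against 840 to 3719 CPM. No marker of Schwann (8), mesothelial and epicardial (9), adipocyte (2 tested) or macrophage (8) lists passed at either size. The mesothelial and epicardial markers summed to 23.9 to 178 CPM and 13.9 to 96.7 CPM, against 3.47 to 147 CPM with ISO alone, with medians of 1.85 and 1.09 for their log2 fold changes. The part that cell composition or the dissected piece of heart has in the differences of the 10 genes was not tested.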

How the data were processed

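Poly(A) RNA libraries from 18 mouse hearts were sequenced by 2 providers, the batches of the labels. The deposited batch 1 table holds raw counts per gene in 46548 entries, of which 215 without a gene name (0.16% to 0.39% of a library's counts) were left out. The deposited batch 2 table holds estimated counts in 57010 entries, 19.6% of whose nonzero values are not whole, and they were rounded. Per the submitters' processing notes, the tools were featureCounts 1.5.0-p3, HISAT2 2.0.5, StringTie 1.3.3b, DESeq2 and fastp, and the build was GRCm39 (mm39), with no role given for each tool. The sources used here do not name the counter of batch 2.

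Tables were joined on 35560 shared genes, 22164 by ID and 13396 by symbol. They cover 98.9% to 99.5% of all reads counted in a library of batch 1. In batch 2 they cover 93.1% to 95.8% in PS libraries and 85.2% to 87.4% in ISO libraries. None of the 23 library pairs compared looked like a duplicate (lowest chi-square per gene 14). The test was run with edgeR 4.0.16 (R 4.3.3) with TMM factors, filterByExpr (minimum count 10) and a robust quasi-likelihood fit. Its model had terms for group and batch, used all 18 libraries and left 14 residual degrees of freedom. The tested differences were 100 nm PS and 1 µm PS each minus ISO, 1 µm PS minus 100 nm PS, and the PS average minus ISO. SE values were derived from the log2 fold change and its F statistic, and a prior count of 2 went into log2 CPM. The procedure was tested on simulated data.

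The 10 members, the gene and marker lists and the tests were chosen with earlier results of these data known. Named besides the members were, from each list, the genes that passed in a PS group (the 3 with the smallest p where more did), the 2 most abundant other structural genes, the 6 genes most like the members' profile, and Col1a1. Coordinates, promoters, lengths and G and C content come from RefSeq GRCm38.p6 and GENCODE M21, not from the build of the counts. For the correction for G and C content, the log2 CPM of a library relative to the average of its batch was smoothed over G and C content (spline, 5 degrees of freedom) and subtracted as an offset. Corrections for G and C content with length, and without ISO replicate 2, were chosen after seeing the data.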

Additional observations from a re-analysis of the deposited data

Results flagged for a closer look

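Each member and each of 4 member ratios was searched in every group of 6, on batch-adjusted log2 values, for a library far from the others, by the gap to the nearest library as a share of the group's range (Dixon's criterion, critical value 0.625). Chance marks about 1 in 20 groups, and 4 of 42 were marked.

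In ISO hearts, replicate 2 lay apart in 3 of them. For Lamc3 it had a log2 level of -2.93, against -1.18 to -0.66 in the other ISO libraries (gap share 0.77). It had 0 Lamc3 reads, so that level is set by the prior count of 2, and the other ISO libraries had 3 to 9. For Hspg2 replicate 2 had 7.19, against 8.68 to 9.54 (gap share 0.63). For the log2 ratio of Col4a2 to Col4a1 it had -1.37, against -0.50 to -0.25 (gap share 0.78). This library had 13152 genes detected. Without it the log2 fold changes of Hspg2 were 0.71 and 0.69 and those of Lamc3 1.89 and 1.57, with 100 nm and 1 µm PS.

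In ISO+1 µm PS hearts, replicate 6 had a log2 ratio of Col4a2 to Col4a1 of -0.50, against -0.24 to -0.18 in the other libraries of its group (gap share 0.83). The difference in that ratio from ISO was 0.26 with all libraries (exact permutation, adjusted p = 0.335 over 8 tests), 0.34 once this library was left out (adjusted p = 0.0286) and 0.04 once ISO replicate 2 was left out in its place, where it did not pass.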

How the results depend on the processing

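With 100 nm PS, 0 members passed without the batch term, 2 in batch 1 alone, 0 in batch 2 alone, 2 with only the groups compared, 0 with the replicate block, and 0 with each correction for G and C content (alone, with length, without ISO replicate 2). The genes passing numbered 717 without the filter, 2607 by DESeq2, 0 without the batch term, 7 in batch 2 alone, 364 with only the groups compared, 0 with the replicate block, 1, 19 and 0 with the 3 corrections, 606 without ISO replicates 1 and 2, and 2644 at an adjusted p under 0.1, against 1399 as reported. With 1 µm PS, 2 members passed without the filter, 1 in batch 1 alone, 3 without ISO replicates 1 and 2, and 0 without the batch term, in batch 2 alone, with only the groups compared, with the replicate block and with each correction. The genes numbered 481 without the filter, 2322 by DESeq2, 0 without the batch term, 598 in batch 1 and 11 in batch 2 alone, 0 with only the groups compared, 0 with the replicate block, 2, 0 and 3 with the corrections, and 2327 at 0.1, against 1081. For the mean of both PS groups, which has no fit with only the groups compared, 3 members passed without the batch term, 2 in batch 1 and 0 in batch 2 alone, 3 with the replicate block, and 1, 0 and 0 with the corrections. The genes numbered 709 without the batch term, 272 in batch 2 alone, 467 with the replicate block, 1541 with the correction for G and C content and length, 131 with the correction for G and C content without ISO replicate 2, 1543 without ISO replicates 1 and 2, and 4009 at 0.1, against 2590. In batch 1 alone, 1940 of 15088 genes (12.9%) passed for the mean of both PS groups, beside 2 of the 10 members. With 100 nm PS, 1134 of 15088 genes (7.52%) passed in batch 1 alone, also beside 2 of the 10 members. For 1 µm against 100 nm PS, 1 gene passed in batch 2 alone. The replicate numbers are not stated to mark a pairing. The 18 same-number pairs had correlations of -0.44 to 0.23, and 0 of 18 libraries correlated best with their own number.

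With 1 library left out, 0 to 7 members and 170 to 2283 genes passed with 100 nm PS, and 1 to 6 members and 265 to 2334 genes with 1 µm PS. In such fits the log2 fold change of Lama2 ran from -0.06 to 0.15 with 100 nm PS and from -0.01 to 0.19 for the mean of both groups. Between sizes that of Lamc1 ran from -0.05 to 0.08, Col18a1 from -0.21 to 0.04, Lama4 from -0.06 to 0.06 and Lamb2 from -0.03 to 0.11. The log2 ratios ran from 1.34 to 1.90 and from 0.78 to 1.22 for Lamc3 to Lamc1, from -0.03 to 0.35 and from 0.04 to 0.34 for Col4a2 to Col4a1, and from -0.06 to 0.19 and from -0.20 to 0.10 for Lama4 to Lama2 (100 nm, then 1 µm PS). The ratio of Lamc3 to Lamc1 with 100 nm PS had no call in batch 1 alone (1.90) or with the replicate block (1.25). There 56 and 64 arrangements are too few for a lone ratio to pass. In batch 1 alone its exact permutation p was the smallest possible, 0.0179. With the replicate block it was not, at 0.0625 (exact sign flips) where 0.0312 was possible.

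Log2 fold changes turned sign in these fits. In batch 1 alone, Lama2 had -0.10 with 100 nm PS and -0.04 for the mean of both groups, Lama4 had -0.05 with 100 nm PS and -0.06 with 1 µm PS and for the mean, and Col18a1 had 0.08 between sizes. With the correction for G and C content, Lama2 had -0.03 and Lamb2 0.00 with 100 nm PS, and Lama4 had -0.07 in all 3 comparisons with ISO. With length added, Lama2 had -0.27, -0.18 and -0.22, Lama4 -0.29 in each, and Lamb2 -0.25, -0.18 and -0.22 (100 nm, 1 µm, mean). Between sizes, values near 0 turned: Lama4 to 0.01 and 0.00 with those corrections, Hspg2 to 0.01 without ISO replicate 2 under the correction and to 0.01 without the batch term, Col4a2 to 0.04 without the batch term, Lamc1 to -0.02 with the replicate block, and Lama2 to -0.08, Lamc1 to -0.16 and Hspg2 to 0.06 in batch 2 alone. The cause was not tested. RLE factors left 6, 6 and 7 members passing. Depth limits Lamc3, which had 0 to 57 reads a library.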
